A study of Mus musculus with 16 samples.

Results

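LINE1 methylation was compared between mouse embryonic stem cells that carry the H730A form of Uhrf1 and wild-type J1 cells (wtJ1), with 4 libraries each of the 16 in the series. The CpG sites compared were those with at least 10 calls in all 8 libraries, and 10739 of the 49722 sites listed in any library met this. Sites on the same strand with gaps of at most 200 bp were joined into 797 stretches, called copies here. Both groups have the J1 strain background (129S4/SvJae), and their medium was serum 2i+LIF, in which LIF and the 2i pair of kinase inhibitors are added. The series also holds a Uhrf1 knockout (Uhrf1 KO) and the F46A form. Genomic DNA was treated with bisulfite, amplified with LINE1 primers over 40 cycles and sequenced. The sources used here do not say whether the H730A cells are 1 clone or how the mutation was introduced. Genotypes rest on the labels, because no Uhrf1 sequence was amplified.

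UHRF1 maintains DNA methylation through replication. Its SRA domain binds hemimethylated CpGs, its RING domain is an E3 ubiquitin ligase that marks histone H3 and the PCNA-associated factor PAF15, and these marks help to bring the methyltransferase DNMT1 to new DNA. The series concerns how the ubiquitin-like (UBL) domain stimulates this ligase activity. As background, H730A changes a residue of the RING domain. LINE1 elements are retrotransposons whose CpG-rich promoters are methylated in most cells, and 2i culture lowers methylation across the genome of embryonic stem cells. After bisulfite an unmethylated cytosine is sequenced as T, and a methylated cytosine stays C.

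The copies largely share 1 arrangement of CpGs, a template of 15 positions. Positions are given in bp, with 1 at the upstream end when read along the called strand. Of the tested sites, 10601 lay on this template, in 898 units, and 138 lay off it. The sequence around the CpGs that kept the largest and the smallest share of wild-type methylation is shown from a single copy, chr12:77553492-77553634 on the minus strand. This copy lies upstream of the lncRNA gene Gm35240, in a RefSeq promoter window of build GRCm38.p6, the assembly behind mm10, and the deposited sites fell on its CpGs at 12 template positions. It had between 24 and 40 calls per site over the 8 libraries and was not among the tested copies, so it serves for sequence only, and other copies can differ in sequence. The windows for positions 113, 53, 65, 86 and 150 are chr12:77553519-77553538, chr12:77553579-77553598, chr12:77553567-77553586, chr12:77553546-77553565 and chr12:77553482-77553501, each 20 bases on the minus strand with the measured CpG in capitals.
Position 113: cagacccgcCGaacttagga
Position 53: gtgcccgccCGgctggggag
Position 65: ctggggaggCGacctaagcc
Position 86: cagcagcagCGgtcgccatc
Position 150: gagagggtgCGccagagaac

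Depth was alike in both genotypes. The 8 libraries held between 1049711 and 1190531 CpG calls, 90.3% of them at tested sites, and the median tested site had 56 to 62 calls per library. The 10 deepest copies held 14.1% of these calls. In chi-square tests no difference above sampling noise was found between wtJ1 replicates 1 and 2 in coverage per copy (p = 0.384), methylation per copy (p = 0.191) or methylation per position (p = 0.442), while every other pair of wtJ1 or of H730A libraries differed by position. Their files are not identical. Means and SDs therefore use their average as a single sample (n = 3 for wtJ1, n = 4 for H730A), while tests keep both libraries. The replicates are described as biological, but not whether each is its own culture or clone, and p-values measure only the spread between these samples. No molecular identifiers mark the PCR reads, and limits from counts cover counting error only.

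H730A cells kept about 30% of wild-type LINE1 methylation. The level, methylated calls over all calls at tested sites, was 24.6, 24.5, 25.2 and 25.0% in wtJ1 replicates 1 to 4 and 7.21, 7.48, 8.61 and 6.51% in H730A replicates 1 to 4. All 4 H730A libraries lay below all wtJ1 libraries, and the H730A libraries were farther apart. The means were 24.9% ± 0.360 (SD, n = 3) and 7.45% ± 0.873 (SD, n = 4), a 3.34-fold difference. The difference over the 4 libraries of each was -17.4 percentage points (95% interval -18.7 to -15.8, exact two-sided permutation test, p = 0.0286, the smallest that 4 against 4 allows). As a share of the wild-type mean, called the retained share here, the H730A libraries were at 28.9, 30.0, 34.5 and 26.1%, a mean of 29.9% ± 3.50 (SD, n = 4). Counting wtJ1 as 3 samples gave an exact permutation p of 0.0571, which 3 against 4 cannot go below.

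Across CpG sites the whole distribution moved down. In wtJ1 64.5% of the tested sites had a level from 20 to under 40% and 5.80% were under 10%. In H730A 75.3% of sites were under 10% and 1.75% were from 20 to under 40%, with the median site at 7.02% against 25.0% in wtJ1. By site, 9848 of 10739 were lower in H730A (91.7%) and 2 were higher (0.0186%) by quasi-binomial fits with limma shrinkage of the dispersion and Benjamini-Hochberg adjustment at 0.05. At 8742 sites (81.4%) every H730A library lay below every wtJ1 library. The 889 sites without a call had a lower median level in wtJ1 (13.4% against 25.9% at the called losses) and thinner coverage (a median of 16 against 50 calls in the least covered library). By template position the most were at 53 (146 of 812 sites), followed by 34 (94 of 701) and 25 (91 of 489). Positions 113 and 103 came next, where 773 of 860 and 768 of 838 sites were called lower. Position 18 (66 of 336 without a call) followed them. By share the order differed, with 80.4% of sites called lower at position 18, 81.4% at 25, 82.0% at 53 and 86.6% at 34. At positions 113 and 103 this was 89.9 and 91.6%, and their retained shares were 43.1 and 34.7%. All 36 sites of position 1 and 36 of the 138 sites off the template were also without a call. Of the 10739 sites, 123 had no methylated call in any H730A library and 50 had none in any wtJ1 library, and 38 were shared. Part of the shared sites lay at position 1, whose 36 sites held 8 methylated calls in H730A and 7 in wtJ1.

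**Figure D1:**
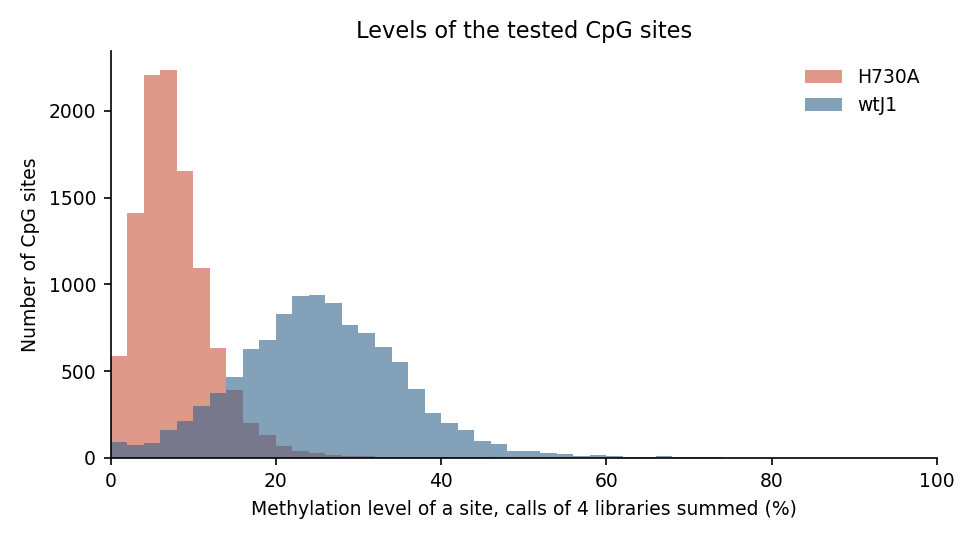
Histogram of the methylation level (x axis, percent, calls of the 4 libraries of a genotype summed) of the 10739 tested CpG sites, with the number of sites per 2-point bin on the y axis, for wtJ1 (blue) and H730A (red). The H730A sites pile up under 10%, with the median at 7.02%, while the wtJ1 sites spread around a median of 25.0%.

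The position of a CpG in the amplicon went with how much it kept. All positions but the first lost methylation, 14 of 15 (93.3%), and in each of them the genotypes did not overlap (p = 0.0286 each by exact permutation, two-sided, adjusted p = 0.0306 over 15 positions). Position 1, with 36 sites, was at 0.172% in wtJ1 and 0.196% in H730A. Among the other 14, the retained share went from 17.2% at position 150 to 43.1% at position 113, a 2.50-fold range.

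Position 113 kept the most. Its level was 31.8, 31.5, 32.2 and 32.1% in wtJ1 replicates 1 to 4 and 13.8, 14.1, 14.8 and 12.5% in H730A replicates 1 to 4, so the groups were far apart. The H730A SD was 0.944 points, or 6.85% of the mean, against 0.873 points and 11.7% of the mean over all tested sites. The retained share was 43.1% ± 2.95 (SD, n = 4). This position took 10.3% of the methylated calls on the template in wtJ1 and 14.7% in H730A. Position 53 followed at 38.5% ± 1.84, from 20.5% ± 0.259 (SD, n = 3) to 7.89% ± 0.376 (SD, n = 4), then position 34 at 35% ± 2.55 and position 103 at 34.7% ± 2.67. These positions started from different levels in wtJ1, 17.0% at position 34 and 28.4% at position 103.

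Position 150 kept the least. It was at 26.4, 26.2, 27.3 and 26.7% in wtJ1 and 4.25, 4.25, 6.24 and 3.67% in H730A, with replicate 3 above the others. Its retained share was 17.2% ± 4.21 (SD, n = 4). Position 86 was at 20.9% ± 3.85 and position 65 at 24.2% ± 4.72, the latter from 31.3% ± 0.529 (SD, n = 3) to 7.56% ± 1.47 (SD, n = 4). Positions 65 and 113 were close in wild type, at 31.3% ± 0.529 and 32% ± 0.310 (SD, n = 3), and at 7.56 and 13.8% in H730A.

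These contrasts were tested within libraries. For each library the level at a position was divided by that library's level over all template sites, and the log2 ratios of the genotypes were compared by an exact permutation test. Of the 14 positions with methylated calls in every library, 5 were relatively higher in H730A (35.7%) and 5 relatively lower (35.7%), each with an exact permutation p = 0.0286 and adjusted p = 0.0400. The 5 higher were positions 113 (log2 difference 0.53), 53 (0.37), 34 (0.24), 103 (0.22) and 18 (0.08). The 5 lower were positions 150 (-0.82), 86 (-0.52), 65 (-0.32), 49 (-0.08) and 29 (-0.08). In copies with a single unit position 49 did not pass (-0.07, exact permutation, adjusted p = 0.0800). Positions 8, 25, 90 and 110 did not pass, with log2 differences of 0.10, -0.03, -0.01 and -0.20. With a library left out no position can pass, because the smallest p for 3 against 4 is 0.0571.

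**Figure D2:**
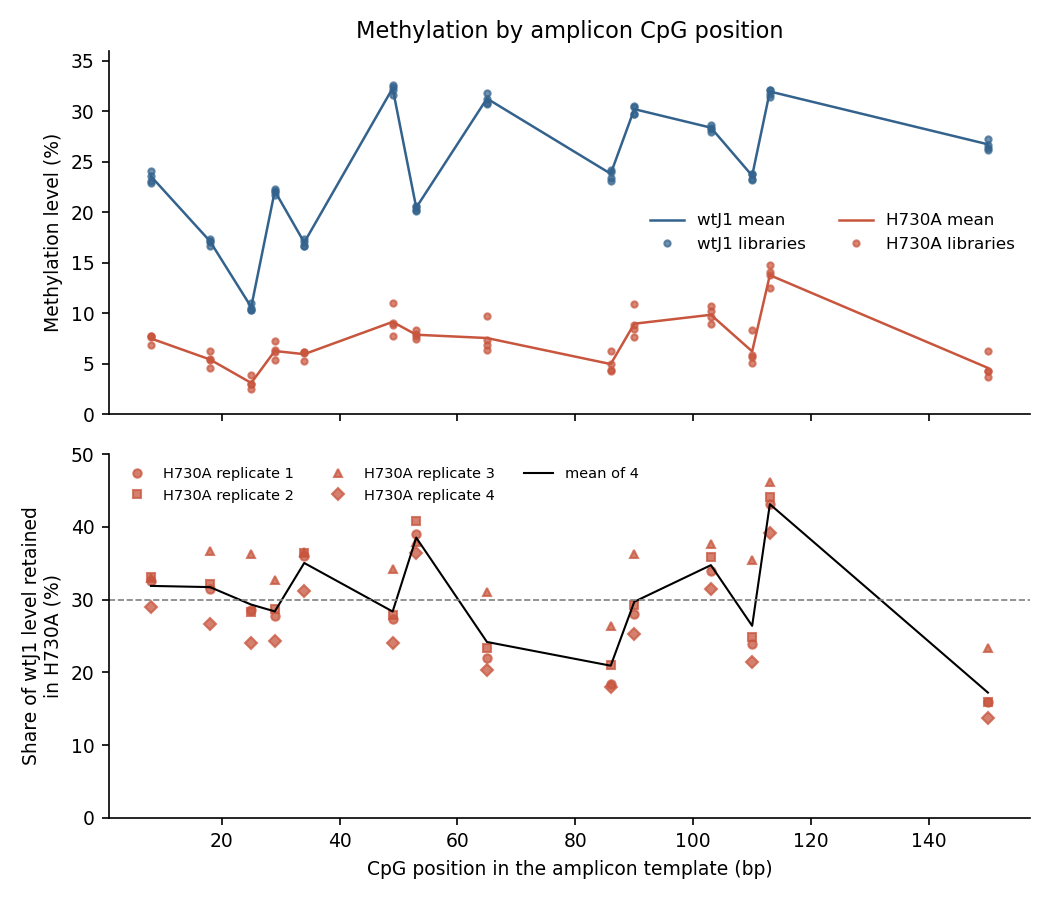
Methylation level in percent (upper panel, points are libraries, lines are genotype means) and share of the wtJ1 mean retained by each H730A library in percent (lower panel, line is the mean of 4, dashed line the 29.9% of all tested sites) against the template position of the CpG in bp, without position 1. The retained share peaks at position 113 (43.1%) and is lowest at position 150 (17.2%), although both were above 26% in wtJ1.

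The ratio between neighbouring CpGs differed between the genotypes, away from equality in some pairs and towards it in others. Positions 110 and 113 lie 3 bp from each other, and the level at 113 was 1.37, 1.36, 1.35 and 1.35 times that at 110 in wtJ1 replicates 1 to 4 and 2.44, 2.40, 1.76 and 2.47 times in H730A replicates 1 to 4. The ratios of the genotypes did not overlap, and H730A replicate 3 was nearest to wild type. Copy by copy, in copies with 1 unit and at least 30 calls per library and a wtJ1 level of at least 10% at both CpGs, position 113 kept a larger share than 110 in 408 of 428 copies and a larger share than 150 in 424 of 427. For positions 90 and 86, 4 bp apart, the first kept more in 379 of 424 copies, and their ratio was 1.26 to 1.29 in wtJ1 libraries and 1.75 to 1.93 in H730A libraries. Positions 53 and 49, also 4 bp apart, became more alike: 53 kept more in 337 of 380 copies, and its level was 0.630, 0.638, 0.634 and 0.634 times that at 49 in wtJ1 and 0.906, 0.927, 0.702 and 0.959 times in H730A. The same held for positions 34 and 29, 5 bp apart, with 233 of 327 copies and ratios of 0.758 to 0.777 in wtJ1 and 0.859 to 0.995 in H730A. These pairs were picked after the values were seen and were not tested.

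The printed windows differ in the base before the CpG. In the Gm35240 copy, positions 65, 86 and 150 have G before the C, and these held the 3 lowest retained shares, 24.2, 20.9 and 17.2%. The 8 positions with C before it (8, 18, 29, 34, 49, 53, 110 and 113) retained 26.4 to 43.1%, and position 90, with T, 29.7%. In wtJ1 the levels of these sets overlapped, at 23.8 to 31.3% with G and 17.0 to 32.3% with C. This grouping was made after the values were seen, on the sequence of 1 copy, and is given as a description. Across the 14 positions the retained share had a Pearson r of -0.57 with the distance to the nearest template CpG and of -0.05 with the wtJ1 level. The first rested largely on position 150, whose nearest template CpG is 37 bp away, and was -0.23 over the other 13 positions. These positions share libraries and reads, and no p is given.

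The H730A libraries differed from each other mainly at some positions. Their SD was 11.7% of the mean level, against 1.45% in wtJ1. Replicate 3 was 1.22 times the mean of the other 3 over all tested sites and was the highest library at 12 of 14 positions and in 447 of 797 copies. Replicate 4 was the lowest at all 14. The excess of replicate 3 was 1.54-fold at position 150, 1.51-fold at 110, 1.42-fold at 65 and 1.38-fold at 86, and 1.04-fold at position 8, 1.06-fold at 34, 1.10-fold at 113 and 0.978-fold at 53. At position 110 the H730A libraries were at 5.65, 5.87, 8.37 and 5.07%, and at position 53 at 7.99, 8.35, 7.76 and 7.46%. Without replicate 3 the retained share over all tested sites was 28.4%, at position 150 it was 15.2%, at position 110 23.4% and at position 113 42.1%. The relative log2 differences were about as large or larger without replicate 3, at -0.90 for position 150, -0.57 for 86, -0.37 for 65, 0.45 for 53 and 0.57 for 113.

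**Figure D3:**
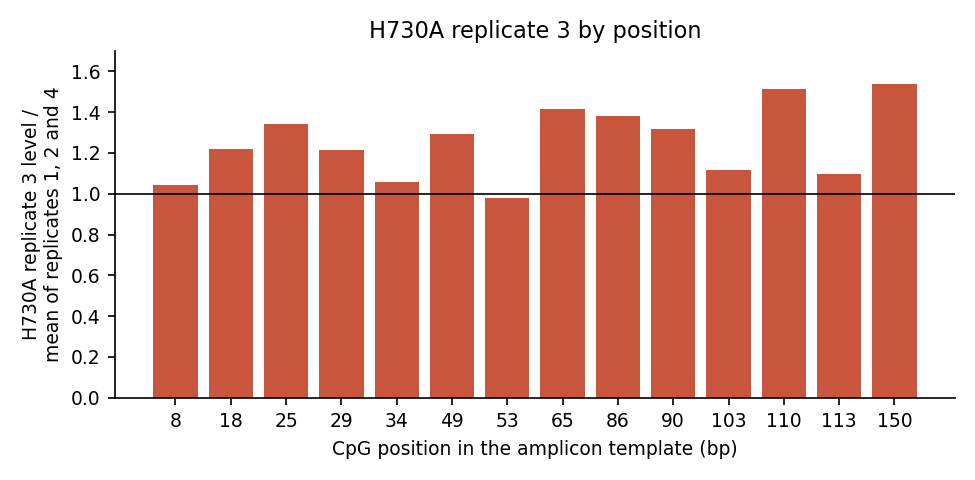
Level of H730A replicate 3 divided by the mean of H730A replicates 1, 2 and 4 (y axis, a ratio) at each template position in bp (x axis), with a line at equality. The bars reach 1.54 at position 150 and 1.51 at position 110 and stay near 1 at positions 8, 34 and 53.

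Every LINE1 copy lost methylation. With calls summed per copy, 797 of 797 were lower in H730A (100%, quasi-binomial fits with limma shrinkage, adjusted p under 0.05), and in 791 (99.2%) the libraries did not overlap. The median copy went from 25.4% in wtJ1 to 7.52% in H730A. Retained shares of copies had a median of 30.2%, with quartiles of 27 and 33.8% and extremes of 8.50 and 57.7%, and 718 copies (90.1%) were between 20 and 40%. The median copy kept 29.3, 29.8, 34.3 and 26.3% in H730A replicates 1 to 4. The order of copies carried over between genotypes: the log2 level relative to the library had correlations across 654 copies of 0.63 to 0.77 between H730A libraries, 0.81 to 0.85 between wtJ1 libraries and 0.62 to 0.74 between a library of each. These 654 are the copies with at least 200 calls in each library, and they share depth and sequence, so no p is given.

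The 6 copies whose libraries overlapped are named after their values were seen. They had few calls, 100 to 400 per library. The copy in Wapl (chr14:34709289-34709394), the gene of a cohesin release factor, was at 25.9, 19.3, 19.4 and 13.6% in wtJ1 and 16.4, 10.1, 8.02 and 4.24% in H730A. The copy at chr1:28192685-28192790 was at 8.33, 5.47 and 7.02% in H730A replicates 1, 2 and 4 and at 20.1% in replicate 3, inside the wtJ1 range of 15.9 to 26.8%. The others lay in Arhgap6 (chrX:169159932-169160020), in Dcc (chr18:71631288-71631430), a netrin receptor, and outside genes at chr13:29070995-29071127 and chr6:60312803-60312935.

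Few copies were called as departing from the common share. Relative to each library's own level, 8 of the 654 deep copies kept more than the rest (1.22%) and 7 kept less (1.07%) by limma on log2 values, adjusted p under 0.05. An unadjusted p under 0.05 was found for 118 (18%), where a share of 0.05 is expected on average without differences. The copies share the same libraries, so this share can also exceed 0.05 by chance. Whether departures extend beyond the called copies was not tested. Since the copies named next were ranked by retained share, their shares are likely to be overstated in both directions. Which copy a read came from is uncertain, because LINE1 copies resemble each other closely.

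The copy at chr3:91126964-91127106, outside protein-coding and lncRNA genes, kept the most of those called. It was at 40.1, 32.3, 36 and 33.2% in wtJ1 and at 19.8, 18.9, 25.7 and 16.7% in H730A, 57.7% ± 10.9 (SD, n = 4) of wild type. Its relative log2 difference was 0.93 (SE 0.11, limma, adjusted p = 0.00235). Of the copies kept above the rest, it was joined by chrX:152524182-152524324 (54.7% ± 9.99), chr12:35854299-35854441 (48.3% ± 4.20), chr12:62548966-62549108 (43.5% ± 4.24) and a neighbouring pair on chromosome 2. The pair, chr2:23939133-23939275 and chr2:23938188-23938330, was also among the most methylated in wild type, at 49.9% ± 5.04 and 49.3% ± 2.13 (SD, n = 3), and held 23.6% ± 2.87 and 22.8% ± 3.05 in H730A (SD, n = 4). The chromosome 12 copy at 35854299 reached its share from a low start, 14.5% ± 0.841 in wtJ1 and 7.02% ± 0.610 in H730A. None of these 6 lies in a protein-coding or lncRNA gene, as holds for 569 of all 797 copies.

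At the other end, the copy at chr1:107926173-107926314 in the lncRNA gene D830032E09Rik kept 13.5% ± 4.01. It was at 18.8, 20.3, 14.7 and 16.3% in wtJ1 and at 1.85, 1.99, 3.29 and 1.99% in H730A, with a relative log2 difference of -1.17 (SE 0.15, limma, adjusted p = 0.00405). The copy at chr10:66072980-66073122 kept 13.8% ± 4.09, from 20.4% ± 1.5 (SD, n = 3) to 2.81% ± 0.834 (SD, n = 4), and chr3:15028625-15028767 kept 14.1% ± 3.40, from 30.5% ± 1.06 to 4.31% ± 1.04. The copies at chr14:82957820-82957962, chr13:91815307-91815449 and chr8:99467057-99467211, the last in the lncRNA gene A330008L17Rik, kept 15.6, 16.4 and 16.8%. From the amplicon positions these 12 copies hold, shares of 29.3 to 30.7% would be reached, so their mix of positions was like that of the other copies. After adjustment for position all 12 were still called (limma, adjusted p at most 0.0494).

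Of these 15 calls, 5 were made with any 1 of the 8 libraries left out: chr3:91126964, chr12:35854299, chr1:107926173, chr10:66072980 and chr3:15028625. The number called was 38 without H730A replicate 3, 5 without wtJ1 replicate 4 and 6 to 11 without any of the others.

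**Figure D4:**
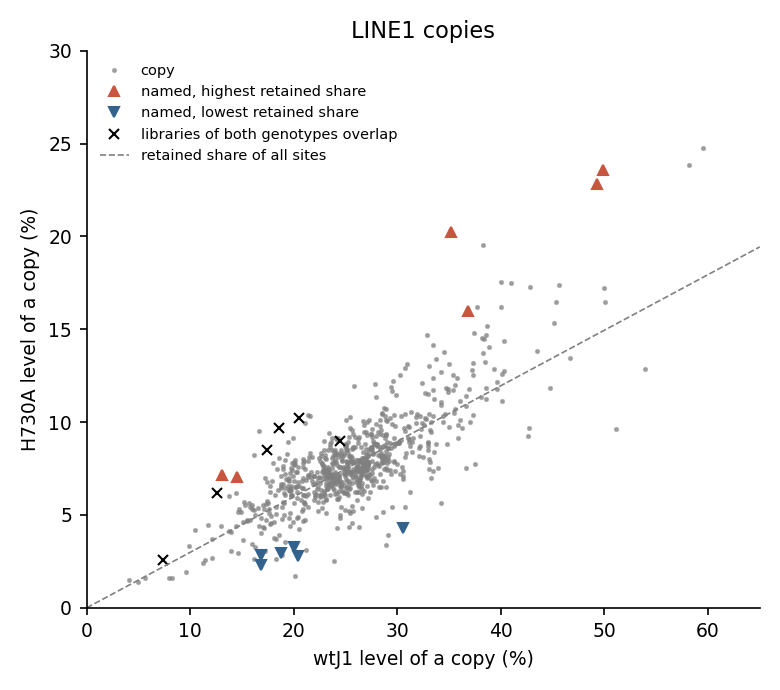
H730A level against wtJ1 level in percent for each of the 797 copies (points), with the named copies of high (red triangles) and low (blue triangles) retained share and the 6 copies whose libraries overlapped (crosses). The dashed line is the retained share of all tested sites, 29.9%, and most copies follow it, with 718 between 20 and 40%.

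**Figure D5:**
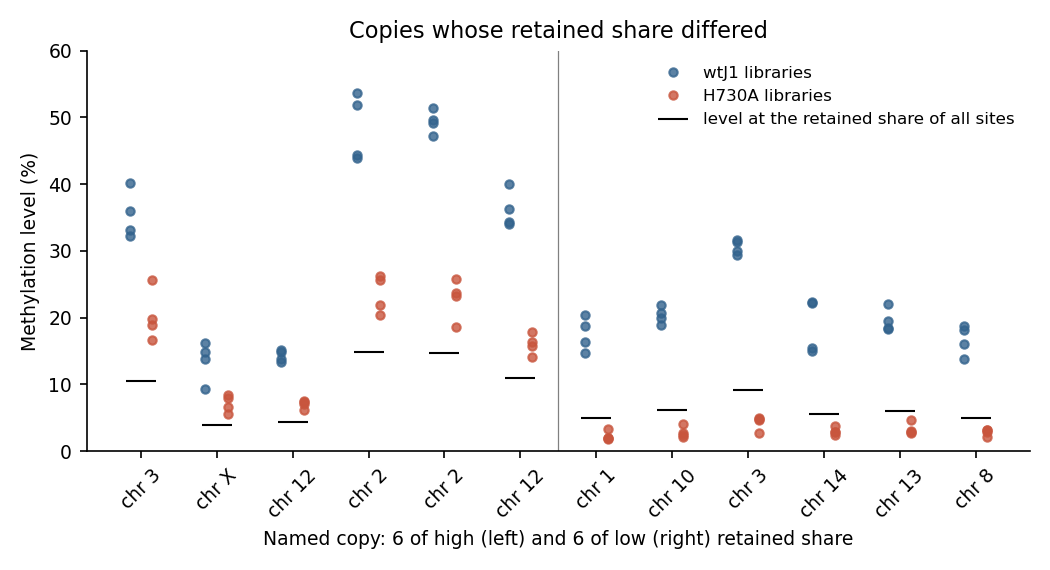
Methylation level in percent of each library of wtJ1 (blue) and H730A (red) for the 12 named copies, by chromosome, with a bar at the level that the 29.9% share of all sites would give. H730A libraries lie above the bar in the left 6 copies and below it in the right 6, and below the wtJ1 libraries in all 12.

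Single sites showed the extremes of the same order. Among 5285 sites with at least 30 calls in each library and at least 20% in wtJ1, the median retained share was 28.5%, with 5th and 95th percentiles of 14.2 and 48.1%. Of the 205 sites above 50%, 115 were at position 113, which had 543 of the 5285. Of the 76 under 10%, 36 were at position 150, which had 499. The sites named next were ranked by this share, so they are descriptions and their shares are likely to be overstated in both directions.

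The 6 named sites with the largest shares were at template position 113, except 1 at position 34 and 1 at position 53. The first, chr3:91126990 at position 34 in the chromosome 3 copy above, was at 41.7, 25.6, 27.1 and 25.0% in wtJ1 and 29, 25.4, 28.6 and 17.9% in H730A, with overlapping libraries, and was not called lower (quasi-binomial model with limma, adjusted p = 0.399). The site chr2:23939238, at position 113 of a chromosome 2 copy above, fell from 58.8% ± 2.82 (SD, n = 3) to 42.8% ± 5.51 (SD, n = 4) with no overlap (same model, limma, adjusted p = 0.0112). The others were chrX:141898613, chr8:28393037, chr5:79848701 and chr1:48546837, whose libraries overlapped and which had 71.0 to 84.1% of the wtJ1 level over summed calls.

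The 6 with the smallest shares were at position 150 in 5 cases and at position 110 in 1. At chr13:91815449, 0 of 252 calls were methylated in H730A, which allows a level of up to 1.19%, against 26.9, 18.9, 33.8 and 18.2% in wtJ1. At chr10:66073122, in the chromosome 10 copy above, 2 of 290 calls were methylated in H730A, against 22.7% ± 3.29 (SD, n = 3) in wtJ1. The site chr5:17609140, in the span of the semaphorin gene Sema3c, had 1 methylated call of 147 in H730A. The sites chr6:70053215, chr14:60333846 in the lncRNA gene Gm34874 and chr12:95585581 had 2 or 3.

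The 2 sites called higher lay off the template. At chr1:40195431 all 77 calls of the 4 H730A libraries were methylated, against 85.2, 90.3, 84.6 and 95.0% in wtJ1 replicates 1 to 4 (quasi-binomial model with limma, adjusted p = 0.00199). At chr10:112587346 the H730A libraries were at 81.2, 84.2, 81.0 and 94.1% and the wtJ1 libraries at 75, 55.6, 55.2 and 67.7% (adjusted p = 0.00622, same limma model). Both had at most 31 calls in a library, and with a minimum of 30 calls neither was tested. They were the only sites above 50% in H730A, where 6 sites off the template and 152 on it were above 50% in wtJ1. Over all 138 sites off the template the level went from 15.4% ± 0.382 (SD, n = 3) to 5.5% ± 0.312 (SD, n = 4).

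Copies inside and outside genes were compared next. The 228 copies inside protein-coding or lncRNA genes kept 29.4% ± 3.78 and the 569 outside kept 30.1% ± 3.39 (SD, n = 4). The ratio of the classes within a library did not overlap between genotypes (log2 difference -0.04, exact permutation p = 0.0286) but did not pass over 5 classes (adjusted p = 0.0714). The 103 copies on the X chromosome kept 30.4% ± 3.30 and those on autosomes 29.8% ± 3.53 (log2 difference 0.03, exact permutation p = 0.0286, adjusted p = 0.0714). Over 5 classes a class at this smallest possible p cannot pass unless enough others reach it too, so the test cannot decide for single classes. Plus against minus strand, several units against 1, and more against less covered copies had log2 differences of 0.02, -0.01 and -0.05 (exact permutation, adjusted p = 0.214, 0.286 and 0.0952). Retained shares by chromosome ran from 28.6% on chromosome 10 to 31.4% on chromosome 4.

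The 10 protein-coding genes whose copies held the most wtJ1 calls were chosen by coverage alone. In all 10 the H730A libraries lay below the wtJ1 libraries (exact permutation, p = 0.0286 each, adjusted p = 0.0286 over 10 genes), as in 99.2% of all copies, with retained shares of 27.5 to 36.1%. Fgd4, an activator of the GTPase CDC42, holds a copy at chr16:16507552-16508118 with at least 32848 calls per library, which was at 23.6, 23.9, 25.0 and 24.5% in wtJ1 and 6.34, 6.93, 7.76 and 5.89% in H730A. In F8, the coagulation factor VIII gene, 3 copies were at 28.3% ± 0.640 (SD, n = 3) and 8.76% ± 2.23 (SD, n = 4), with 12% in replicate 3 and at most 8.41% in the others. Lrrc69, a leucine-rich repeat gene, kept the largest share of the 10, 36.1% ± 6.35, from 14.7% ± 0.911 to 5.30% ± 0.932. Grm5, a metabotropic glutamate receptor, kept 33.5% ± 2.62, Slc8a1, a sodium-calcium exchanger, 31% ± 3.70, and Focad, which encodes focadhesin, 29.5% ± 3.8. Lrp1b, Nol4, Nckap5 and Gm40862 kept 29.2 to 34.2%. No gene of the 10 passed the test of a retained share that differs from all sites (exact permutation, adjusted p at least 0.143). Fgd4 (log2 difference -0.11) and Lrrc69 (0.27) had an exact permutation p = 0.0286, the smallest possible. Over 10 genes a gene that reaches this p alone cannot pass, so the test cannot decide for single genes.

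Beside the other Uhrf1 genotypes, measured over sites with 10 calls in their libraries as well, H730A was the least depleted in mean. Uhrf1 KO was at 4.95% ± 0.0701 (SD, n = 4), and all 4 H730A libraries lay above it, by 2.50 points (95% interval 1.46 to 3.71, exact permutation p = 0.0286, adjusted p = 0.0571 over 2 comparisons). F46A was at 5.40% ± 0.944 (SD, n = 4), 2.05 points below H730A (95% interval -0.02 to 4.34 for H730A above F46A, exact permutation p = 0.0571, adjusted p = 0.0571). Neither passed 0.05 after adjustment. Over 2 comparisons the smallest p that 4 against 4 allows cannot pass unless both comparisons reach it. The adjusted p therefore cannot decide for Uhrf1 KO, whose libraries all lay below those of H730A.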

How the data were processed

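Per the file headers, each deposited table holds, for 1 library, a count of methylated calls (C) and a count of all calls (C plus T) at every listed CpG. A fraction, methylated over all calls, is also deposited by the authors. The submitters' processing notes list Trim Galore 0.3.1, BSMAP 2.90, methylKit and the build mm10, with no roles. Conversion was not estimated here, as only CpG context is listed, and the handling of reads that match more than 1 LINE1 copy is not stated in these sources.

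Counts were used as deposited, and groups came from sample titles. Sites and copies were tested with a quasi-binomial model whose Pearson dispersion was moderated by squeezeVar of limma 3.58.1 (R 4.3.3) and kept at 1 or above. The test of differing copies used limma on log2 of (methylated + 0.5) over (total + 1), minus log2 of the library's level. Benjamini-Hochberg adjustment at 0.05 ran over all features of a test. Intervals of 95% invert the exact permutation test. The limit for 0 counts is 3 counts of the total. Models were tested on simulated data. The template started from the most frequent exact CpG spacing (127 copies). Positions seen in at least 30 units were added, and a unit needs 6 sites. Host genes are protein-coding and lncRNA genes by span alone, from RefSeq GRCm38.p6, without exons or UTRs.

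Copies named were the 6 highest and 6 lowest in retained share among those called without overlap of relative levels. Sites named were the 6 highest and 6 lowest with at least 30 calls and 20% in wtJ1, 1 per 1000 bp, and those called higher. Host genes named were the 10 with the most calls. The comparison, its members and these rules were chosen with earlier results of these data known. Alternatives were other coverage minimums, sites, gaps, offsets and tools, single strands, each library left out and the replicate number as a block.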

Additional observations from a re-analysis of the deposited data

Results flagged for a closer look

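In 6 of 60 groups of 4 libraries checked, 1 H730A library stood apart: its gap to the nearest other library, as a share of the whole range, passed the 95% critical value of Dixon's test. Chance flags about 1 group in 20. At template positions 8 and 34 replicate 4 was low (gap share 0.852 and 0.886). In the copies at chr1:107926173 and chr13:91815307 replicate 3 was high (0.904 and 0.845), and at chr3:15028625 replicate 4 was low (0.862). At the site chr5:17609140 replicate 4 held the only methylated call (gap share 1.00). Any site with methylated calls in a single library has this gap share, so the flag says nothing about the size of the gap.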

How the results depend on the processing

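The level difference of -17.4 points kept its direction under every alternative run. With 1 library left out it was -17.7 to -17.0 points, where p cannot pass 0.05. It was -17.5 points with wtJ1 replicates 1 and 2 as 1 sample (exact permutation p = 0.0571) and -17.4 points with the replicate block (exact sign-flip p = 0.125, the smallest that 4 pairs allow). Deviations from group means over copies correlated at 0.05, 0.06, -0.02 and 0.05 between libraries of the same replicate number, 1 to 4. These correlations were small, yet 3 of 4 H730A libraries correlated best with their own number. Whether replicate numbers pair the libraries was not tested. Sites lower in H730A numbered 1864 of 1868 with a minimum of 100 calls, where fewer sites are tested, and copies 144 of 144. Sites higher numbered 0 with minimums of 30 and 100 calls. Of copies with a differing share, those higher were 2 with the replicate block, 2 with wtJ1 replicates 1 and 2 summed and 2 of 210 with at least 1000 calls. Those lower were 1 with at least 1000 calls and 17 with a variance trend on coverage. With 1 library left out they were 2 to 14 higher and 3 to 24 lower. Counting or summing wtJ1 replicates 1 and 2 together and the variance trend were chosen with the data already seen. The cause of these changes was not tested. Positions lower, relatively higher and relatively lower were each 0 with 1 library left out, a count fixed by the smallest p of 3 against 4, while the relative log2 difference was -0.90 to -0.78 at position 150 and 0.52 to 0.57 at position 113.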

Other observations

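Sites below the coverage minimum were not part of the comparison. At these 35450 sites, which held 871274 calls over the 8 libraries, wtJ1 was at 27.4% ± 0.238 (SD, n = 3) and H730A at 7.83, 7.81, 8.94 and 7.13% in replicates 1 to 4, a retained share of 29% ± 2.73 (SD, n = 4). The 4 H730A libraries stood in nearly the same order here as at the tested sites, with replicate 3 highest and replicate 4 lowest.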
